A study of Mus musculus with 18 samples.

Results

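mRNA isoforms of mouse myotubes were chosen by their 3′ UTR sequence: members are nuclear isoforms whose 3′ UTR holds ACATTCC, the match to the seed of miR-1a-3p and miR-206-3p, or GGACCAA, the match to the seed of miR-133a-3p and miR-133b-3p. The rule itself uses sequence, not TE, half-life or coverage. Members made up 482 of the 7123 isoforms of the polysome table, 220 with a miR-1/miR-206 site, 280 with a miR-133 site and 18 with both. In the decay table, members made up 320 of 6636 isoforms, 166 with a miR-1/miR-206 site, 161 with a miR-133 site and 7 with both. Taken over both tables these were 670 distinct isoforms, of which 132 were listed in both. The cells were wild-type primary myoblasts, taken from gastrocnemius of female mice, that fused into myotubes within 24 h of 1 µM SCH772984, an ERK inhibitor, and every sample shared this treatment. Both ends of single mRNA molecules were read by TIF-seq2. In the polysome assay, 100 µg/ml cycloheximide was given for 5 min and mRNA was sorted by its ribosome load into free mRNA, a light fraction with 2 to 5 ribosomes and a heavy one with 6 or more, each from 2 mice (6 libraries). In the decay assay, 7.5 µg/ml actinomycin D blocked transcription for 0, 3, 6 or 12 h, each from 3 mice (12 libraries). Each table pools its libraries into 1 coverage count and 1 derived value per isoform, TE (translation efficiency) or half-life, so the spread between mice is unknown and no value carries an SD.

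MicroRNAs guide Argonaute proteins to 3′ UTRs that pair with their seed, the bases near the 5′ end of the microRNA, and a bound mRNA can be translated less and degraded sooner. miR-1, miR-206 and miR-133 are made in muscle, are induced as myoblasts differentiate and are known as regulators of muscle proliferation, fusion and growth. miR-1 and miR-206 share 1 seed, and the miR-133 microRNAs share another. The data used here hold no measure of these microRNAs or of Argonaute binding, so their level in these myotubes is unknown.

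The mature sequences below set the motifs that were searched. They are from RefSeq (build GRCm38.p6), with the seed (nt 2 to 8) in capitals. miR-206-3p lies at chr1:20679055-20679076 and miR-133b-3p at chr1:20682834-20682855, both on the plus strand.
mmu-miR-206-3p: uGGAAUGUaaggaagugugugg
mmu-miR-133b-3p: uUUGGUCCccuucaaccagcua

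The miR-1/miR-206 sites below belong to some of the most covered members, to gene pairs described later and to targets known from other work. Sod1 and Capg, outside these groups, are added with sites at either edge of the 3′ UTR. The site is in capitals within its 3′ UTR, given 5′ to 3′ as deposited. Tpm2 (chr4:43514712-43523464, minus strand, build GRCm39 as all positions of isoforms) had its only site 959 nt after the stop codon, near the end of a 1209-nt 3′ UTR. Sod1 has the site directly at the stop codon, at the 1st base of a 65-nt 3′ UTR, and in Capg the site forms the last 7 bases before the cleavage point of a 97-nt 3′ UTR. In Coro1c both sites were followed by A, which makes them 8mers.
Tpm2: agtgtctcctaACATTCCtaacatggtttt
Gpx3: ggaaggaagccACATTCCcagtcattctac
Dmpk: attgagactcgACATTCCtcggtatttatt
Sh3bgrl3: ctccagaggcaACATTCCttattcaccaac
Serpinf1: aagctgattatACATTCCaggaaggcggcc
Shisa4: ctgcctgctccACATTCCacagcaggggag
Bpnt1: ttgtgcagtcaACATTCCtgctgataaacc
Sod1: ACATTCCctgtgtggtctg
Capg: caataaaggacACATTCC
Tagln2: tgttttagcagACATTCCctgagagcccct
Coro1c, 1st site: gccatttggagACATTCCatgtcagatctg
Coro1c, 2nd site: agcgataggccACATTCCagtaagaactcg

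The miR-133 sites below were picked in the same way. Tagln2 (chr1:172327846-172334942, plus strand) carries them 262 and 280 nt after the stop codon, downstream of its miR-1/miR-206 site at 69 nt. Rpl13a gains its site 70 nt after the stop codon, beyond the 23-nt 3′ UTR of its shorter form.
Arhgdia: ggacaaatgtgGGACCAAgttcacacagtt
Klhdc3: cgcggtggtggGGACCAAcagacagcttca
Dad1: ttcgctctatcGGACCAActccacagtgta
Rpl13a: tagggaagtggGGACCAAaggttccttagg
Gosr2: gctaaatccaaGGACCAAgtaaatagtagg
Tagln2, 1st site: ccatcaaaactGGACCAAcaaaaaccctgg
Tagln2, 2nd site: caaaaaccctgGGACCAAagttgcctcccc
chr8:70960915-70963017: atgtgaccccgGGACCAAataaagtcccct

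The share of isoforms with each motif had an interval that overlapped that of its own reverse complement on the same strand. The differences were not tested. ACATTCC was more common than its reverse complement in the polysome assay and less common in the decay assay. Among the 3683 nuclear polysome isoforms with a 3′ UTR and a coverage of at least 30, ACATTCC stood in 3.34% (exact binomial 95% interval 2.78 to 3.97%) and its reverse complement GGAATGT in 2.61% (2.12 to 3.17%). GGACCAA stood in 3.83% (3.23 to 4.50%), the same share as its reverse complement TTGGTCC. In the decay table, among 5106 such isoforms, ACATTCC stood in 2.72% and GGAATGT in 2.94%, and GGACCAA stood in 2.57% and TTGGTCC in 3.15%. Isoforms of a gene share their 3′ UTR, so these intervals, which cover counting error only, are too narrow. Sites followed by A, the 8mer form, were found in 0.977% (miR-1/miR-206) and 1.36% (miR-133) of the polysome isoforms.

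Summed coverage was 1601919 in the polysome and 3121491 in the decay table, and members held 6.04 and 3.77% of the coverage of nuclear isoforms with a 3′ UTR. Of the 482 polysome members 228 lay below the coverage minimum of 30 and 14 more had no TE above 0, which left 240. Of the 320 decay members 57 lay below it and 2 more had no half-life above 0, which left 261. TE could be described for 116 miR-1/miR-206 and 134 miR-133 isoforms, and half-life for 137 and 131. These came from 74 and 96 stop codons with TE and from 89 and 94 with a half-life. The deposited tables give no gene names, so names rest on a match of 5′ sequences to reference promoters, which named 61.9% of miR-1/miR-206 rows, 53.3% of miR-133 rows and 54.1% of nuclear rows. Unnamed isoforms are given by position. Markers of myotubes (11 of 12 listed, among them Acta1, Ckm, Myh3 and Myog) were named in both tables and held 8.38 and 8.45% of coverage. Of the 12 markers listed for myoblasts, fibroblasts, endothelium and macrophages, 0 were named, but isoforms that no promoter matched could hold them.

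Sites lay all along the 3′ UTR. At a coverage of at least 30 there were 119 distinct miR-1/miR-206 and 124 distinct miR-133 sites. miR-1/miR-206 sites began a median of 313 nt after the stop codon (quartiles 114 and 621.5 nt) and ended a median of 340 nt before the 3′ end. miR-133 sites began a median of 351.5 nt after the stop codon (149 and 718.75 nt) and ended a median of 275.5 nt before the 3′ end. Divided into 4 equal stretches from the stop codon on, the 3′ UTRs held 34, 31, 28 and 26 of the miR-1/miR-206 sites and 29, 32, 29 and 34 of the miR-133 sites. All 8 intervals of these shares include 25%, so a preference for either end was not detectable. Within 15 nt of the stop codon, where the passing ribosome covers the mRNA, 3 miR-1/miR-206 sites (2.52%, 0.523 to 7.19%) and 6 miR-133 sites (4.84%, 1.80 to 10.2%) began. The base after the site was A in 36 of 119 miR-1/miR-206 sites (30.3%) and in 45 of 124 miR-133 sites (36.3%). Flanks richer in A and U than the rest of the 3′ UTR, which in general favour microRNA action, were found at 51 of 119 miR-1/miR-206 sites (42.9%, 33.8 to 52.3%) and at 60 of 124 miR-133 sites (48.4%, 39.3 to 57.5%).

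**Figure D1:**
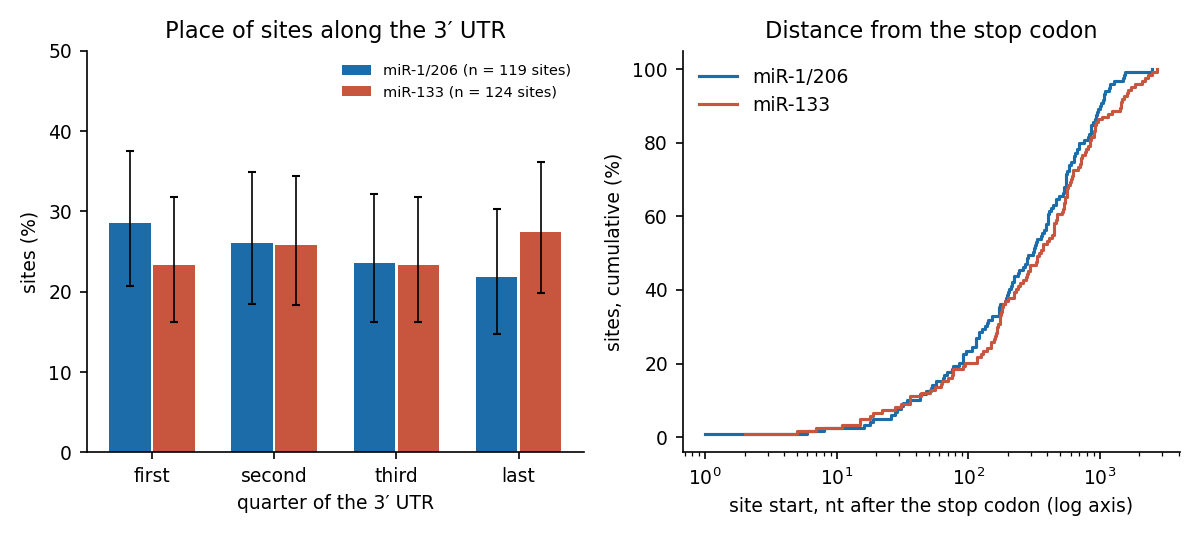
Left, share of distinct sites (%) in each of 4 equal stretches of the 3′ UTR from the stop codon (first) to the 3′ end (last), with exact binomial 95% intervals, for miR-1/miR-206 (n = 119 sites) and miR-133 (n = 124 sites). Right, cumulative share of sites (%) by distance of the site start from the stop codon (nt, log axis). The bars lie between 21.8 and 28.6%, and both curves run close together.

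Members had long 3′ UTRs, as a search for a fixed motif will find. The median 3′ UTR of members with a TE was 748 nt for miR-1/miR-206 and 847 nt for miR-133, against 304 nt for all nuclear isoforms used. A miR-1/miR-206 site stood in 1.15% of polysome isoforms with 3′ UTRs of up to 150 nt, 1.28% at 151 to 400 nt, 5.60% at 401 to 1200 nt and 10.5% above 1200 nt. For miR-133 the same classes gave 0.521, 2.47, 5.68 and 14.1%. Other features were compared at the members' own mix of lengths. A polyadenylation hexamer (AAUAAA or AUUAAA, sense strand) in the last 40 nt marked 74.1% of miR-1/miR-206 isoforms with a TE, against 81.4% of site-free isoforms at these lengths. For miR-133 the shares were 88.1% of site isoforms, against 81.1% of site-free isoforms. In the decay table the hexamer marked 72.3% of miR-1/miR-206 isoforms, against 82.4% of site-free isoforms, and 87.0% of miR-133 isoforms, against 81.6% of site-free isoforms. The families thus lay on opposite sides of the site-free share in both tables. The tables overlap, with 57 miR-1/miR-206 and 79 miR-133 isoforms listed in both before any coverage minimum, so they are not independent repeats. An AUUUA pentamer, the core of AU-rich decay elements, was found in 42.7% of miR-133 isoforms with a half-life, against 49.4% of site-free isoforms. Their mean 3′ UTR GC content was 52.7%, against 49.8% in site-free isoforms. These differences were not tested, since isoforms of a gene are not independent.

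TE fell with 3′ UTR length in site isoforms as it did in site-free isoforms. Above 1200 nt the median TE was 0.000422 with a miR-1/miR-206 site (95% interval 0.000366 to 0.000544, n = 27 isoforms) and 0.000366 with a miR-133 site (0.000319 to 0.000479, n = 36), against 0.000440 without a site (0.000403 to 0.000476, n = 196). At 401 to 1200 nt it was 0.000659 with a miR-1/miR-206 site (0.000560 to 0.000736, n = 63) and 0.000618 with a miR-133 site (0.000534 to 0.000668, n = 64), against 0.000619 without (0.000603 to 0.000639, n = 1006). In these classes, site and site-free intervals overlapped for both families. Half-life at 401 to 1200 nt had medians of 10.4 with a miR-1/miR-206 site (9.83 to 11.3, n = 78) and 9.56 with a miR-133 site (8.70 to 10.4, n = 70), against 10.4 without (10.1 to 10.6, n = 1504). The unit of half-life is not stated in the sources used here; assay times were in hours. How TE was computed is not given either, and a TE scaled by transcript length would itself be lower in longer isoforms.

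**Figure D2:**
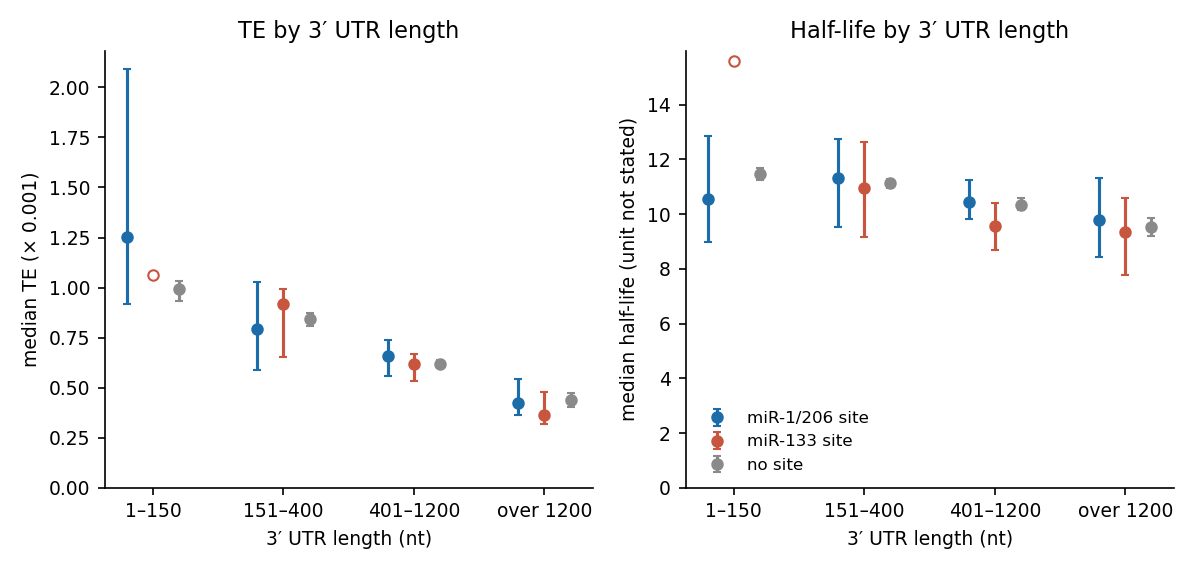
Median TE (left, × 0.001) and median half-life (right, unit not stated) in 4 classes of 3′ UTR length (nt) for isoforms with a miR-1/miR-206 site, with a miR-133 site and with no site. Bars are 95% intervals of the median over isoforms, and open circles have too few isoforms (5 with TE, 2 with half-life) for one. TE steps down from class to class in all 3 sets, from above 1.0 at up to 150 nt for miR-1/miR-206 to 0.366 above 1200 nt for miR-133.

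Set against site-free isoforms of the same 3′ UTR length, neither family had a lower median TE. For each isoform the difference was log2 of its value minus the median log2 value of isoforms without either site in the same length bin. Of all 3517 isoforms with a TE, 49.8% lay below that median, as the construction fixes. Of the miR-1/miR-206 isoforms 55 of 116 (47.4%) lay below it, with a median difference in TE of 0.11 on the log2 scale (95% interval -0.05 to 0.25). Of the miR-133 isoforms 64 of 134 (47.8%) lay below it, with a median of 0.02 (-0.09 to 0.12). Without matching by length the medians were -0.28 and -0.32. For half-life, 50.1% of all 5058 isoforms lay below the bin median. miR-1/miR-206 isoforms were below it in 66 of 137 cases (48.2%; median difference 0.02, -0.05 to 0.10), and miR-133 isoforms in 73 of 131 (55.7%; median -0.07, -0.14 to 0.08). All 4 intervals include 0. They describe the spread over isoforms, not over mice, and lean on genes with many starts. With 1 isoform per gene or stop codon, the median differences in TE were 0.11 for 74 miR-1/miR-206 genes (-0.06 to 0.27) and 0.09 for 96 miR-133 genes (-0.04 to 0.24). The median differences in half-life were -0.02 for 88 miR-1/miR-206 genes (-0.08 to 0.10) and -0.02 for 94 miR-133 genes (-0.11 to 0.14).

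**Figure D3:**
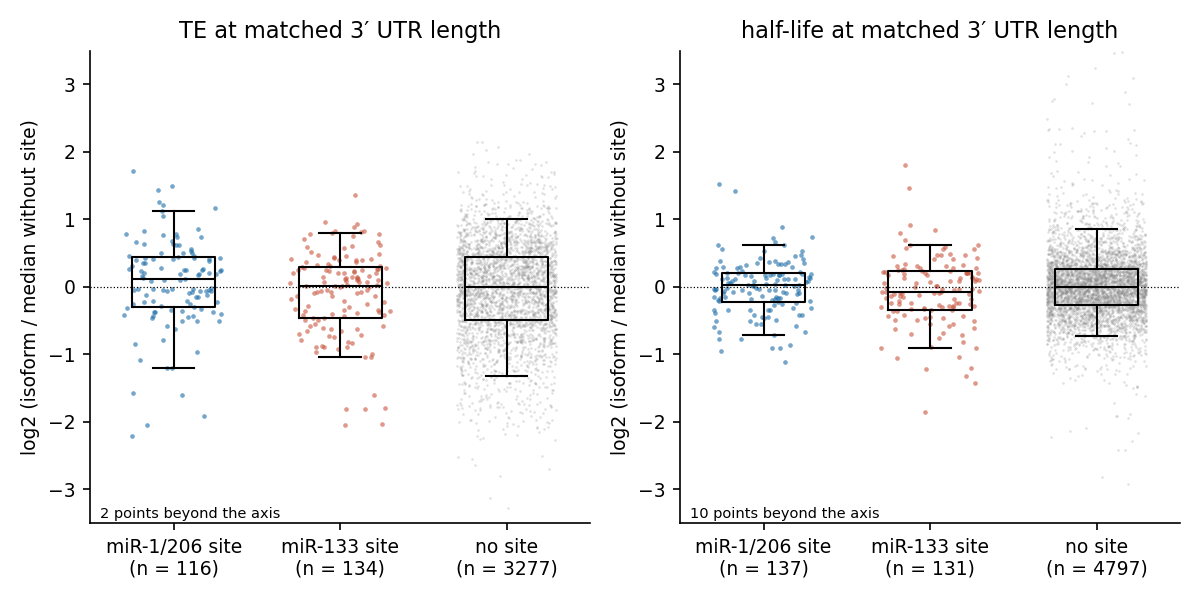
log2 difference of TE (left) and half-life (right) from the median of site-free isoforms in the same bin of 3′ UTR length. Each point is an isoform, boxes give median and quartiles, whiskers the 5th and 95th percentiles, and 2 (TE) and 10 (half-life) points lie beyond the axis. The miR-1/miR-206 and miR-133 boxes overlap the site-free box around 0.

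Single members spread far more than the family medians. The most covered miR-1/miR-206 isoform with a TE was Tpm2, which encodes beta-tropomyosin of the thin filament, with a coverage of 4798 and a TE of 0.000466, 0.03 below its matched median on the log2 scale. Gpx3, a secreted glutathione peroxidase, had a TE of 0.000718 at a coverage of 3525, 0.21 above. Both sat close to site-free isoforms of their length, and 2 others stood well above. Sh3bgrl3, a small protein of the thioredoxin fold, had a TE of 0.00172, 2.25 times its matched median. Serpinf1, a secreted serpin with antiangiogenic activity, had a TE of 0.00207, 2.18 times its matched median, in an isoform with a new polyadenylation site and a 103-nt 3′ UTR that still holds an 8mer. Dmpk, the kinase gene of myotonic dystrophy, had a TE of 0.000794, 0.36 above on the log2 scale. Mea1, with an 8mer 28 nt after the stop codon, had a TE of 0.000857, 0.04 below. The 6 most covered members thus had 4 TE values above their matched medians and 2 just below.

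The most covered miR-133 isoform was Arhgdia, with a coverage of 6010 and a TE of 0.000611, 0.15 above its matched median. An unnamed isoform at chr15:76131000-76134104 (plus strand) had a TE of 0.000668 at a coverage of 5487, 0.01 above. At chr7:28873956-28879932 (minus strand) TE was 0.000569 in a form with an 850-nt 3′ UTR, 0.05 above. From the same start, a form with a 1126-nt 3′ UTR and the same 8mer had a TE of 0.000423, 0.38 below. Klhdc3, a substrate receptor of a cullin ubiquitin ligase, had a TE of 0.000515, 0.36 below its matched median. The isoform at chr8:70960915-70963017 (minus strand), with an 8mer in a 67-nt 3′ UTR, had a TE of 0.00108, 0.10 above. These 6 ranged from 0.38 below to 0.15 above, narrower than the 6 of miR-1/miR-206.

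Half-lives of the most covered members lay mostly above their matched medians. Among miR-1/miR-206 isoforms, Gpx3 had a half-life of 11.6 (0.18 above on the log2 scale), Tpm2 of 11.8 (0.29 above), Mea1 of 14.4 (0.37 above) and Dmpk of 11.4 (0.16 above). Atp6v1e1, a subunit of the vacuolar proton pump, had 10.8 (0.02 above), and Serpinf1 had 10.1 (0.17 below). Among miR-133 isoforms, Arhgdia had a half-life of 11.99 (0.26 above), chr15:76131000-76134105 had 12.8 (0.26 above) and chr8:70960915-70963017 had 14.5 (0.31 above). The 2 forms from chr7 had 14.8 (850-nt 3′ UTR, 0.56 above) and 11.7 (1126-nt 3′ UTR, 0.23 above), and Ctsa, the lysosomal protease cathepsin A, had 11.02 (0.02 above). So 11 of these 12 isoforms lay above the median, the 2 chr7 forms from 1 start among them. Coverage moved with this: among site-free isoforms covered at least 300 times, the median half-life difference was 0.13 (0.11 to 0.14, n = 1315). Only 408 of these 1315 (31.0%) lay below the matched median, so most well-covered isoforms lay above it without a site. At that coverage the median difference was 0.12 for miR-1/miR-206 (-0.04 to 0.19, n = 32, 34.4% below) and 0.23 for miR-133 (0.12 to 0.29, n = 32, 18.8% below). At a coverage under 300 it was -0.03 for miR-1/miR-206 (-0.14 to 0.09, n = 105) and -0.14 for miR-133 (-0.26 to -0.07, n = 99), against -0.08 for site-free isoforms (-0.10 to -0.07, n = 3482). The decay coverage pools all times and can itself depend on half-life; its part in the result was not tested.

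Within a gene, isoforms that differ only in their start had the same site and still differed in value. Gpx3 had 15 starts with a half-life, all joined to 1 3′ end with a 718-nt 3′ UTR, and these ran from 7.65 to 14.8 with a median of 10.4. Of these, 7 lay below the matched median, and 8 above. Dmpk had 4 starts with a TE, at 0.000415 to 0.000794, and 3 of these lay below the matched median while the most covered start was the highest. Slc6a9, a glycine transporter, had 4 starts with a TE of 0.000418 to 0.000536, all below. Tspan4, a tetraspanin, had 3 starts with a TE of 0.000934 to 0.00110, all above. For miR-133, Synpo2l, an actin-associated protein of muscle, had 4 starts with a TE of 0.000257 to 0.000345, all below, and Arhgdia had 4 starts at 0.000611 to 0.000726, all above. Over all named genes with 3 or more member isoforms, the isoforms lay on 1 side of the matched median in 7 of 12 genes for TE and in 4 of 10 for half-life. Single starts of Arhgdia and Tspan4 also lay on both sides for half-life (4 of 6 and 1 of 4 below). Site-free genes were not counted in this way, so these counts show nothing particular to genes with a site.

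Members were also split by the kind and number of sites, and the differences between these groups were not tested. Median differences in TE were 0.10 for miR-1/miR-206 isoforms with an 8mer (-0.11 to 0.27, n = 35) and 0.14 for those without (-0.06 to 0.25, n = 81). For miR-133 they were 0.04 with an 8mer (-0.13 to 0.12, n = 48) and 0.00 without (-0.23 to 0.17, n = 86). Half-life differed by 0.08 with a miR-1/miR-206 8mer (-0.05 to 0.19, n = 40) and 0.02 without (-0.09 to 0.09, n = 97), and by -0.11 with a miR-133 8mer (-0.28 to 0.09, n = 45) and -0.03 without (-0.14 to 0.14, n = 86). With 2 miR-1/miR-206 sites, 4 of 6 isoforms lay below the matched median for TE (median -0.04, against 0.13 with 1 site) and 4 of 4 for half-life (-0.19, against 0.03 with 1 site). With 2 miR-133 sites, 1 of 8 lay below for TE (0.28, against 0.00 with 1 site) and 5 of 9 for half-life (-0.09, against -0.07 with 1 site). Half-life differed by -0.16 in 56 miR-133 isoforms that also held an AUUUA pentamer (-0.25 to -0.06), with 38 (67.9%) below. In 1481 site-free isoforms with a pentamer it differed by -0.06 (-0.08 to -0.04), with 837 (56.5%) below. Without a pentamer the medians were 0.05 for 75 miR-133 isoforms (-0.11 to 0.19) and 0.03 for 3316 site-free isoforms (0.01 to 0.04). The intervals of site and site-free isoforms overlapped in both cases.

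Among members with 2 sites of a family, Vat1, a homologue of a vesicle membrane protein, had a TE of 0.000574 (0.27 above its matched median) and a half-life of 10.97 (0.19 above). An isoform at chr9:119842822-119852632 with 2 miR-133 sites was low in both: its TE was 0.000201 (0.96 below) and its half-life 4.04 (1.20 below), at a coverage of 151 and 30. Miga2, a mitochondrial outer membrane protein with 2 miR-1/miR-206 sites, had a TE of 0.000355 (0.42 below) and a half-life of 9.31 (0.05 below). The isoform at chr9:65461668-65487334, also with 2 miR-1/miR-206 sites, had a TE of 0.000387 (0.02 below). A form of it with 1 end listed 2 nt further on had a half-life of 5.66 (0.71 below) at a coverage of 37. Wbp1l, with 2 miR-1/miR-206 sites in a 2668-nt 3′ UTR, had a TE of 0.000291 (0.06 below).

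Isoforms with a value in both assays were low in both about as often as site-free isoforms. TE and half-life were both below the matched medians in 6 of 39 miR-1/miR-206 isoforms (15.4%) and in 14 of 58 miR-133 isoforms (24.1%), against 339 of 1601 site-free isoforms (21.2%). Both were above in 14 miR-1/miR-206 isoforms (35.9%) and 23 miR-133 isoforms (39.7%), against 564 site-free isoforms (35.2%). These shares of both families lay near those of site-free isoforms. TE was above and half-life below in 13 of 39 miR-1/miR-206 and 12 of 58 miR-133 isoforms, against 300 of 1601 site-free isoforms. This mix thus made up a larger share of miR-1/miR-206 isoforms than of site-free isoforms. The reverse mix was found in 6 miR-1/miR-206, 9 miR-133 and 398 site-free isoforms. These differences were not tested.

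Isoforms with the same 5′ end and the same 5′ UTR, of which the shorter 3′ UTR lacks the site, compare an mRNA with and without it. Among 5′ ends with a miR-1/miR-206 isoform with a TE, 14 of 106 (13.2%) also had an isoform without the site, and among those with a half-life 23 of 126 (18.3%). For miR-133 these were 6 of 128 (4.69%) and 7 of 122 (5.74%). Most site isoforms therefore had no site-free partner from the same start in these data. With nested 3′ UTRs and 1 pair per 5′ end, 13 pairs lost a miR-1/miR-206 site and 4 a miR-133 site in the polysome table, and 21 and 6 did so in the decay table.

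TE was lower with the miR-1/miR-206 site in 13 of 13 pairs, which all added at least 397 nt. It was lower in the longer form in 79.5% of all 220 pairs, a share that covers every added length, short ones included. The median difference with the site against without was -0.51 on the log2 scale (-0.74 to -0.49). Pairs that gained no site also had lower TE in the longer form, by -0.26 at 200 to 400 nt of added length, -0.47 at 400 to 800 nt and -0.87 above 800 nt (medians of 32, 40 and 43 pairs). Their upper quartiles were -0.18, -0.32 and -0.56, so a lower TE in the longer form was usual at these lengths without a site. Minus the median of site-free pairs of the same added length, the site pairs were at 0.20 (-0.23 to 0.38), with 4 of 13 below 0. The pairs came from 5 genes, and 8 of them were Tpm2. With 1 value per gene the median was -0.49 before and -0.02 after this correction. The 5 pairs without Tpm2 were at -0.23 after it, with 4 of 5 below 0, so the median above 0 came from Tpm2. TE was lower with the miR-133 site in 3 of 4 pairs (median -0.41), and the corrected median was 0.46 with 1 of 4 below 0.

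Half-life was lower with the miR-1/miR-206 site in 16 of 21 pairs. The longer form had the lower half-life in 61.2% of all 433 pairs, a share that covers every added length. Site-free pairs had a median of -0.01 at up to 50 nt of added length (n = 69) and -0.29 above 800 nt (n = 72). The 8 Tpm2 pairs, with 971 nt added, fall in the latter class. The median difference with the site against without was -0.40 (-0.58 to -0.01), and -0.11 (-0.48 to 0.21) after subtracting site-free pairs of the same added length. With 1 value for each of 12 genes the medians were -0.16 before and 0.03 after. For miR-133, 4 of 6 pairs were lower with the site (median -0.29, and -0.10 after correction, -0.74 to 1.53). A yardstick for the error is given by pairs whose 3′ UTRs differ by under 50 nt: their log2 differences had an SD of 0.40 for TE (n = 35 pairs) and 0.83 for half-life (n = 81 pairs). This is the spread of single pairs, not the error of a median.

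Tpm2 offered the most pairs. Its mRNAs ended either after 1209 nt of 3′ UTR, with the site, or after 238 nt, without it. At the main start (chr4:43523464) TE was 0.000466 with the site and 0.000831 without, at coverages of 4798 and 8897. Over 8 starts TE ran from 0.000366 to 0.000671 with the site and from 0.000559 to 0.000951 without, and it was lower with the site at 8 of 8 (median log2 difference -0.64). Of these starts the authors annotated 2 as known and 6 as new, and of the 8 with a half-life 1 as known and 7 as new; new starts lie inside the annotated transcript. Site-free pairs with over 800 nt of added length had a median of -0.87 for TE and -0.29 for half-life. Half-life at the main start was 11.8 with the site and 12.8 without, and it was lower with the site at 7 of 8 starts (median -0.42). The exception, the start at chr4:43516009, whose 5′ UTR length is given as 0, had 119.3 with the site (coverage 164) and 14.1 without (coverage 1469). The site form held 34.9% of the paired Tpm2 coverage in the polysome assay and 8.40% in the decay assay. This gap is between pooled libraries of different assays, and neither share has a replicate.

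**Figure D4:**
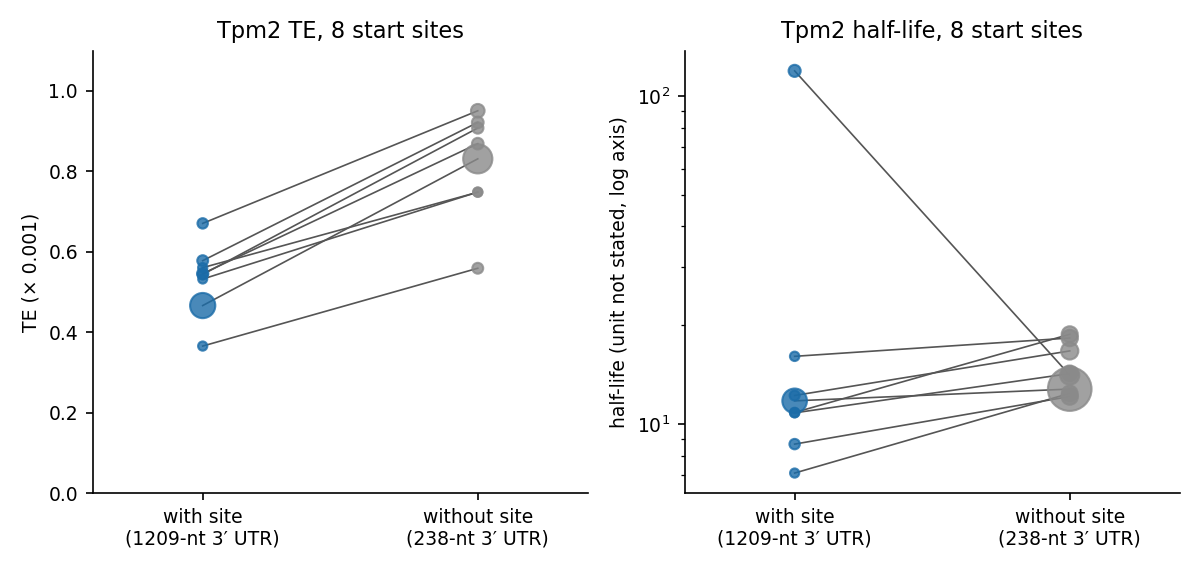
TE (left, × 0.001) and half-life (right, unit not stated, log axis) of Tpm2 isoforms with the miR-1/miR-206 site (1209-nt 3′ UTR) and without it (238-nt 3′ UTR), joined by start site, with larger points for higher coverage. TE is lower with the site at all 8 starts, and half-life at 7 of 8.

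Other pairs that lost a miR-1/miR-206 site were fewer per gene. Shisa4, a transmembrane protein, had a TE of 0.000528 with its 8mer and 0.000739 without at 1 start, and 0.000585 with it and 0.000833 without at another. Its half-life was 9.74 with the site and 14.4 without at 1 start, but 12.2 with it and 9.43 without at another, so the 2 starts disagreed. Bpnt1, a phosphatase of sulfur metabolism, had the widest drop in half-life, with 8.07 with the site and 25.9 without (coverages of 124 and 107). Fads2, a fatty acid desaturase whose longer form gains a site of each family, had a TE of 0.000731 with them and 0.000792 without. An isoform at chr10:80941832-80960530 (plus strand) had a TE of 0.000358 with the site and 0.000504 without, and a half-life of 11.5 with it and 9.67 without. The pair from chr10:80156351 (minus strand) had a TE of 0.000387 with the site and 0.000917 without. The pair from chr5:38718907 had a half-life of 10.7 with its 8mer and 16.1 without, and the pair from chr6:86770526 had 11.5 with the site and 11.5 without.

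For miR-133, Rpl13a, a protein of the large ribosomal subunit, had a TE of 0.000771 with the 8mer and 0.00180 without (coverages of 504 and 1782), 1.22 lower on the log2 scale, while site-free pairs of 200 to 400 nt of added length had a median of -0.26. Its half-life was 12.9 with the site and 14.6 without, a small difference. The opposite was seen at chr8:70960915-70963017, where the form with the 8mer had a TE of 0.00108 and the form lacking it 0.000428, at coverages of 2408 and 43 and with 3′ UTRs of 67 and 35 nt. Gosr2, a Golgi SNARE protein, had a half-life of 8.87 with the site and 15.5 without. Dctn5, a dynactin subunit, had 9.70 with it and 12.9 without. The pair from chr1:135241475 had a half-life of 4.39 with its 8mer and 8.22 without. The pair from chr9:121606761 had a half-life of 28.2 with the site (coverage 30) and 11.9 without (coverage 2535), and a TE of 0.000319 with it and 0.000520 without.

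Few targets known from other work were found in the tables. Of 23 genes listed for miR-1/miR-206 from general knowledge, 4 were named in the tables, and 3 of these held the site: Tagln2 (transgelin-2, an actin-binding protein), Coro1c (a coronin, which binds actin) and G6pdx (glucose-6-phosphate dehydrogenase of the pentose phosphate pathway). Of 21 genes listed for miR-133, 3 were named, and 1 held the site, again Tagln2. Tagln2 had a TE of 0.00111 at a coverage of 1158, 0.84 above its matched median, and a half-life of 12.5, 0.29 above. Coro1c, with 2 sites, had a TE of 0.000446 at a coverage of 39, 0.19 above. G6pdx, with 2 sites, had a TE of 0.000569 (0.12 below) and a half-life of 8.09 (0.34 below), at coverages of 37 and 48. These 3 genes did not share a direction. Fstl1 (a secreted glycoprotein), Ucp2 (a mitochondrial carrier) and Snai1 (a transcriptional repressor) were listed without the site in their 3′ UTRs. Fstl1 rested on 1 isoform with a 187-nt 3′ UTR at a coverage of 23, and Snai1 on 1 isoform at a coverage of 26. These coverages lay below the minimum used for values. A site in other forms of these genes is not excluded. Ucp2 had a TE of 0.000351, 0.82 below the median of its length, and a half-life of 14.6, 0.51 above.

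Sites of both families stood together in 10 isoforms with a TE and 7 with a half-life. Tagln2 was the most covered of these. At chr2:30872381-30912649 (plus strand) TE was 0.000659 (0.26 above its matched median) and half-life 5.35 (0.91 below). Of the 10 isoforms with a TE 4 lay below the matched median, and of the 7 with a half-life 3 did.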

How the data were processed

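TIF-seq2 was applied to 18 libraries of mouse myotubes (6 polysome, 12 decay). The submitters' processing notes name bcl2fastq 2.20.0, cutadapt 1.16, UMI-tools 0.5.4, STAR 2.5.3a and build GRCm39. The authors deposited a coverage count per isoform, pooled over an assay, and a score, TE or half-life, with no formula in the labels. Columns holding a single library's values number 0, which leaves depth per library and spread between mice unknown; no test across samples was possible; the planned comparisons were made as descriptions.

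Members were found by the sense-strand motif in the deposited 3′ UTR. The values described are those of nuclear isoforms with a coverage count of 30 or more and a value above 0, on the log2 scale. Matching used 3′ UTR length bins with edges at 100, 150, 200, 300, 400, 600, 800, 1200, 1600 and 2400 nt. Pairs were matched in bins of added length with edges at 50, 100, 200, 400 and 800 nt, with 1 pair kept per 5′ end, chosen by the coverage of its less covered form. Intervals of medians are exact order-statistic 95% intervals over isoforms. Python 3.11.15, pandas 2.3.3, numpy 2.4.6 and scipy 1.17.1 were used, and the matching steps were tested on simulated data.

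Genes were named where 30 nt of the 5′ UTR, or its first 20 nt, stood in the RefSeq promoter (GRCm38.p6) of 1 gene on the same chromosome and strand, and names were passed on through a shared 5′ end or stop codon. Described were the 6 most covered members per family and table, up to 8 pairs per family and table, the members with most sites or with both families, and listed targets. Slc6a9, Tspan4, Synpo2l and the pair from chr10:80156351 were chosen after their values were seen. The site sequences of Sod1, Capg and Dad1 were printed outside these rules. The members and lists were chosen with earlier results of these data known.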

Additional observations from a re-analysis of the deposited data

How the results depend on the processing

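Of 70 alternatives to a value with an interval, 60 stayed inside it; of 6 alternatives to TE of the miR-133 pairs, which has none, 2 stayed within 50% of it. Every interval of a difference in its main setting, matched by length, includes 0, so signs could change: TE of miR-1/miR-206 was -0.02 at a coverage of at least 15. Some intervals of the alternatives exclude 0. Without length matching, the median TE difference was -0.28 for miR-1/miR-206 (-0.46 to -0.07) and -0.32 for miR-133 (-0.50 to -0.23). That of half-life was -0.056 for miR-1/miR-206 (-0.12 to 0.005) and -0.14 for miR-133 (-0.20 to -0.03). Only the half-life interval of miR-1/miR-206 includes 0 among these. Lower bounds also moved: for TE of miR-133 to -0.27 in the linear fit and -0.15 with the 30 nearest isoforms, and for half-life of miR-133 to -0.28 with 8mers only and -0.18 with the 30 nearest isoforms. A linear fit on UTR lengths, GC content and coverage gave -0.10 for TE of miR-133. Without subtracting pairs of the same added length, TE of pairs was -0.51 for miR-1/miR-206 (-0.74 to -0.49) and -0.41 for miR-133. Half-life of miR-1/miR-206 pairs was then -0.40 (-0.58 to -0.01). With the subtraction, half-life of these pairs was -0.45 with 8mers only (-0.61 to 0.52, 7 pairs, 5 below 0). It was -0.19 with sites of nt 2 to 7 (-0.35 to 0.04, 56 pairs, 34 below 0). At a coverage of at least 60 it was -0.05 (-0.45 to 0.48, 12 pairs, 6 below 0). With 8mers only, TE of pairs was -0.24 for miR-1/miR-206 (2 pairs) and 0.18 for miR-133 (2 pairs). The miR-133 pairs gave -1.02 at a coverage of at least 60 (1 pair) and 0.038 with all pairs kept (5 pairs), but 0.30 at a coverage of at least 15 (8 pairs) and 0.24 with sites of nt 2 to 7 (0.05 to 0.58, 20 pairs, 5 below 0). 8mers alone stood in 0.977% (miR-1/miR-206) and 1.36% (miR-133) of polysome isoforms and in 0.803 and 0.881% of decay isoforms. Leaving out Tpm2, chosen after seeing the data, gave TE differences of 0.10 over members and -0.23 over the 5 remaining pairs. No paired analysis was possible because the columns carry no library or replicate number, and leaving out a replicate could not be run for the same reason. Coverage under 100 in 1 form limits what many pairs can show.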
